A study of Mus musculus with 52 samples.

Results

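Slc19a3, Slc19a2 and Thtpa, genes of thiamine transport and use, were followed across frontal cortex libraries from 52 mice. The 3 genes were chosen by name from the count table, led by the level of Slc19a3 in APP/E4 females on the high-fat diet, so that difference chose the set and is described here without a test. All 3 were found among the 15692 genes of the table, and all 3 were among the 15195 genes that passed the filter on low counts. Every mouse carried the APP/PS1ΔE9 transgenes, which drive amyloid deposition, on a background where mouse Apoe was replaced by homozygous human APOE3 (APP/E3) or APOE4 (APP/E4). The mice had received a normal diet (ND, Prolab Isopro RMH 3000) or a Western-type high-fat diet (HFD, D12079B, with 40% of calories from fat) for 3 months from a mean age of 3.5 months. The labels place behavioural testing at a mean age of 14.7 months and give no age at tissue collection. No mice without the transgenes or with mouse Apoe were analysed here, and what is high or low is so among amyloid-model mice only. The APP/E3 males numbered 6 on ND and 6 on HFD, and the APP/E3 females 7 and 8. The APP/E4 males numbered 6 and 5, and the APP/E4 females 7 and 7. The labels do not say which mice were littermates.

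Thiamine enters cells through 2 related carriers, Slc19a2 and Slc19a3, the second of which is known for its expression in brain capillaries and for a human encephalopathy caused by its loss. Inside the cell thiamine is converted to thiamine pyrophosphate (TPP), the cofactor of pyruvate dehydrogenase, oxoglutarate dehydrogenase, branched-chain ketoacid dehydrogenase and transketolase. Thtpa hydrolyses thiamine triphosphate to TPP.

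The sequences just upstream of the 3 start sites are printed because they set the carriers apart from each other before any expression value is considered. Each line holds the 250 bases before the start site on the gene's strand, from RefSeq on build GRCm38.p6, and capitals mark matches to a GC box (GGGCGG) or to a hypoxia response element core (ACGTG or GCGTG), both searched on either strand.
Slc19a3, chr1:83038449-83038698, minus strand: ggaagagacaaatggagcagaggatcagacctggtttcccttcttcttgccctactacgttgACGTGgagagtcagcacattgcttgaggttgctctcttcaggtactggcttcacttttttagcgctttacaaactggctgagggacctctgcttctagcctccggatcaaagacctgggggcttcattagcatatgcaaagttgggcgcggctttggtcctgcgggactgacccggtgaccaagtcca
Slc19a2, chr1:164248796-164249045, plus strand: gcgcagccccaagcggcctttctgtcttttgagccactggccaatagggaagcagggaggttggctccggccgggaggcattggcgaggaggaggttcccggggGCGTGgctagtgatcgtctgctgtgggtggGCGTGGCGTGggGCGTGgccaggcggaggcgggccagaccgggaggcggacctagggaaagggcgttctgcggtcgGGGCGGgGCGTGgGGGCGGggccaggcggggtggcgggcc
Thtpa, chr14:55094534-55094783, plus strand: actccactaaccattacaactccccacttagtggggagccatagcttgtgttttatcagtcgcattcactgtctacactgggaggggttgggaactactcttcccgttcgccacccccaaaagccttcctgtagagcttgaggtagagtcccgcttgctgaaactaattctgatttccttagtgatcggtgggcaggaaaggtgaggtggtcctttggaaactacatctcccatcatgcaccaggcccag
The Slc19a2 window was 73.2% G and C, higher than 94.3% of the 32851 promoter windows of that length, and it held 23 CpG dinucleotides. It contained 2 GC boxes, at 40 and 27 bases before the start, and 5 hypoxia cores, and no match of one motif overlapped the other. The Slc19a3 window was 52.8% G and C with 8 CpG dinucleotides, close to the medians over all windows of 52.4% and 6, and held 1 hypoxia core, 188 bases before the start. The Thtpa window was 51.2% G and C with 5 CpG dinucleotides and held neither motif. A GC box stood in 32.7% of all windows and a hypoxia core in 38.6%, so a match to either is common. Such a match describes letters in a window and was not tied to any expression value.

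Levels are given as CPM, the counts of a gene per 1000000 counts of the library. Library totals ran from 5343347 to 13128299 counts, apart from 1 APP/E3 ND male at 39388340 counts, and 3 counts correspond to 0.0762 to 0.561 CPM. Neuronal markers were abundant in every library, with no marker of 6 below 1442 counts, and none of the 5 cortical projection neuron markers was at 0. Markers of striatum, olfactory bulb and choroid plexus varied widely between libraries. The libraries also fell into 3 read classes, defined from the counts of 323 pseudogenes. Class 1 held 33 libraries of both sexes, class 2 held 11 females and class 3 held 8 males, so classes 2 and 3 follow the labelled sex.

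Slc19a3 was a weakly expressed gene in this cortex. Its mean over the 52 libraries was 4.12 ± 0.896 CPM (SD), from 18 to 166 counts per library, and 20.2% of tested genes had a lower mean. Its spread within groups, 0.243 on the log2 scale, was little more than the 0.227 that counting alone gives at these depths, which limits how well a single library places this gene. Slc19a2 averaged 17.5 ± 2.34 CPM and Thtpa 30.6 ± 2.92 CPM. Divided by exon length, the levels were 1.34 ± 0.292 CPM per kilobase for Slc19a3, 4.56 ± 0.61 for Slc19a2 and 10.8 ± 1.03 for Thtpa. Per length, Slc19a2 had the higher level of the carriers and Thtpa the highest of the 3. In the current annotation Thtpa shares 412 exon bases with Ap1g2 on the opposite strand. It shares 1607 with Gm20687, a model classed as antisense that lies on the same strand as Thtpa. Whether reads were assigned by strand is not given in the sources used here. Such assignment would separate Ap1g2 but not Gm20687, and the Thtpa level is uncertain to that extent. Ap1g2 itself stood at 4.35 ± 1.18 CPM.

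Slc19a3 was highest in APP/E4 females on HFD and lowest in APP/E4 females on ND. In the APP/E4 females on HFD the 7 libraries ran from 4.59 through a median of 5.20 to 6.54 CPM. In those on ND the 7 libraries ran from 2.83 through a median of 3.33 to 4.21 CPM. The 2 sets did not overlap, and this separation is the pattern for which the gene was chosen. Overlap was examined for the 3 genes only, so how common such a separation is among the 15195 tested genes is not known here. The group means were 5.32 ± 0.672 and 3.30 ± 0.459 CPM (SD, n = 7 each), a log2 difference of 0.68 ± 0.14 (SE), or 1.61-fold, with a 95% interval of 0.41 to 0.96. Ordered from the highest log2 difference, Slc19a3 stood at rank 183 of 15195 genes in this contrast. Its rank of 1 by p comes from the values that chose the gene and adds no support. Estimate and interval take no account of that choice, are likely too far from 0, and are no test. In the same contrast edgeR called 0 of 15195 genes (0%) at an adjusted p under 0.05, with 1201 at an unadjusted p under 0.05, and DESeq2 and limma voom also called 0.

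The other 6 groups lay between these extremes. The next highest mean after APP/E4 HFD females was that of APP/E3 ND males, at 4.55 ± 0.599 CPM (n = 6), with libraries from 3.81 to 5.50. It was followed by APP/E3 HFD females at 4.26 ± 0.797 (n = 8), APP/E3 ND females at 4.07 ± 0.847 (n = 7), APP/E4 ND males at 3.96 ± 0.642 (n = 6), APP/E3 HFD males at 3.82 ± 0.631 (n = 6) and APP/E4 HFD males at 3.42 ± 0.891 (n = 5). The step of 0.772 CPM from the first group to the second was the only one between neighbours that exceeded the larger SD of the pair, 0.672. With totals scaled by TMM factors these means were 5.32 ± 0.777 and 4.58 ± 0.589 CPM, and the step no longer exceeded that SD. The first group holds the values that chose the gene, so the step is a description only. The remaining 7 groups were ordered by steps smaller than their own spread. The 5 APP/E4 HFD males held both the lowest library of all, at 2.26 CPM, and one at 4.75 CPM.

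**Figure D1:**
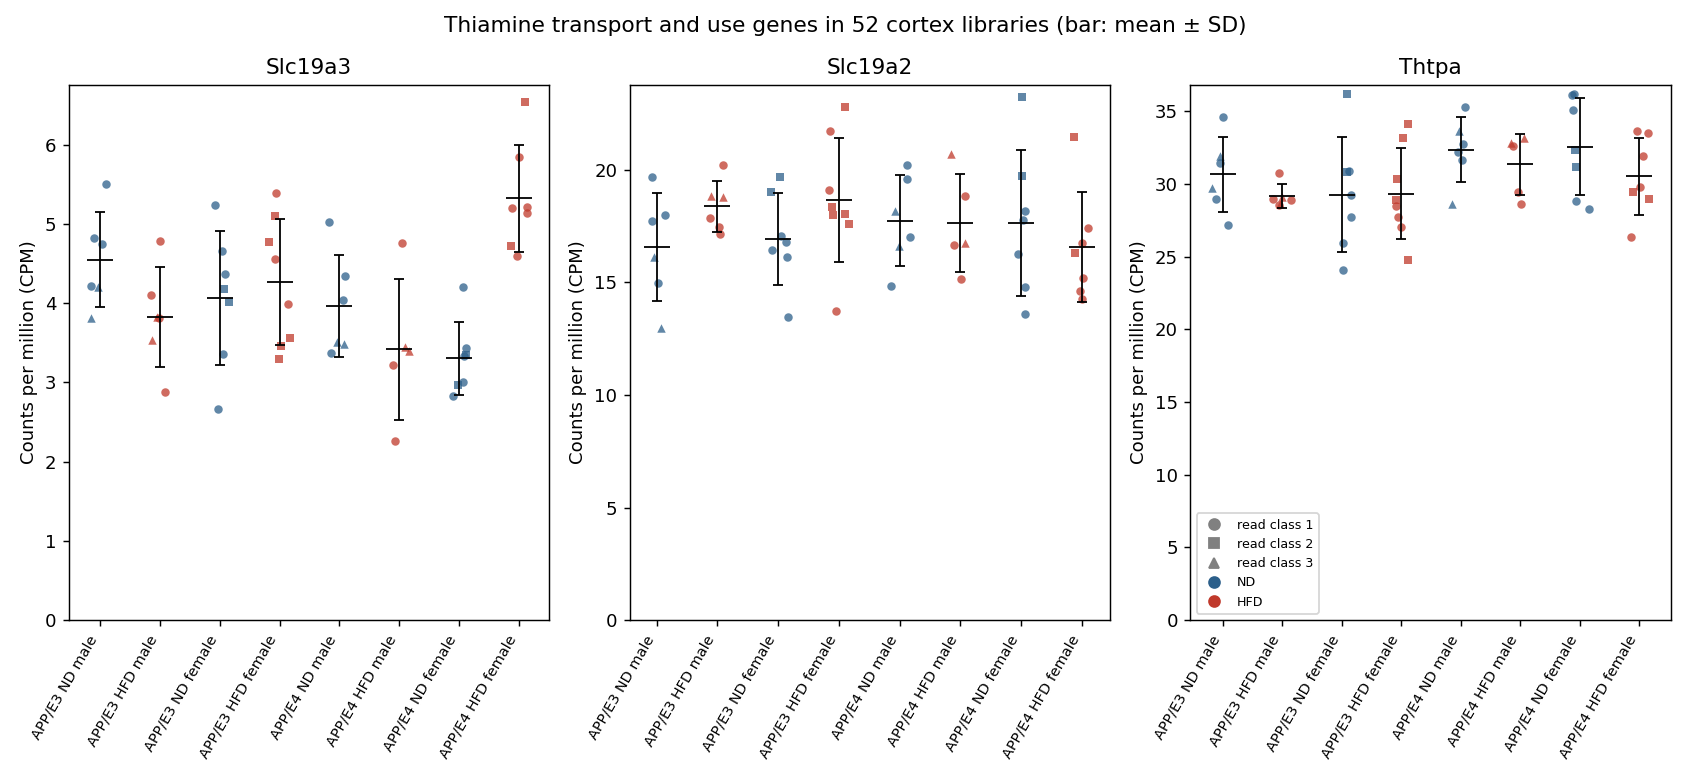
Levels of Slc19a3, Slc19a2 and Thtpa in CPM (vertical axes, from 0) in each of the 52 libraries, by group, with bars for mean ± SD, colour for diet and marker shape for read class. The Slc19a3 points of APP/E4 females separate by diet, at 4.59 CPM and above against 4.21 CPM and below, and all other pairs of diet groups overlap. How many of all tested genes separate in this way was not counted.

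Slc19a2, the broadly expressed carrier of the pair, overlapped between diets in every stratum. In APP/E4 females its 7 HFD libraries ran from 14.2 through 16.3 to 21.4 CPM and its 7 ND libraries from 13.6 through 17.8 to 23.2 CPM. These sets overlapped almost completely, and the log2 difference of HFD against ND was -0.10 ± 0.11. Its group means ran from 16.6 CPM in APP/E4 HFD females to 18.7 CPM in APP/E3 HFD females, and no step between neighbouring groups exceeded their SD. The smallest spread was that of APP/E3 HFD males, at 18.4 ± 1.13 CPM (n = 6).

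Thtpa, the triphosphatase, had the narrowest relative spread of the 3 genes, with a coefficient of variation of 9.55% over the 52 libraries against 21.8% for Slc19a3. In APP/E4 females its HFD libraries ran from 26.4 through 29.8 to 33.6 CPM and its ND libraries from 28.3 through 32.3 to 36.2 CPM. The sets overlapped, and the log2 difference was -0.10 ± 0.073. Group means ran from 29.2 CPM in APP/E3 HFD males to 32.6 CPM in APP/E4 ND females, again in steps smaller than the SD. Both APP/E4 groups on ND lay at the top of this order.

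The diet comparison was then tested in the 3 strata other than APP/E4 females. The genes were chosen with earlier results of these data known, so these strata may not be free of that choice. A gene was called at a Benjamini-Hochberg adjusted p under 0.05 over all 15195 genes in edgeR's quasi-likelihood test. None of the 3 genes was called in any of them. In APP/E4 males, Slc19a3 was at 3.42 CPM on HFD and 3.96 on ND, a log2 difference of -0.19 ± 0.16 with an adjusted p of 0.994. That value ran from -0.34 without HFD male 3 to -0.077 without HFD male 4. In APP/E3 females the difference was 0.06 ± 0.14 with an adjusted p of 0.9999, and in APP/E3 males -0.24 ± 0.15 with an adjusted p of 0.474. The 95% intervals were -0.51 to 0.12, -0.21 to 0.32 and -0.53 to 0.05. Averaged over the 3 strata, the Slc19a3 difference was -0.13 ± 0.086 (adjusted p = 0.579).

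The same comparisons for Slc19a2 gave 0.02 ± 0.12 in APP/E4 males, 0.13 ± 0.10 in APP/E3 females and 0.16 ± 0.11 in APP/E3 males, with adjusted p of 0.998, 0.9999 and 0.538. Averaged, it was 0.10 ± 0.065 (adjusted p = 0.541), with a 95% interval from -0.02 to 0.23. Under the 9 other processing settings described below, this average ran from 0.051 to 0.11. For Thtpa the averaged difference was -0.03 ± 0.045 (adjusted p = 0.813), with an interval from -0.12 to 0.05, the narrowest of the 3. Few genes of any kind passed in these contrasts. edgeR called 0 genes (0%) in APP/E4 males, 4 in APP/E3 females (0.0263%), 0 in APP/E3 males (0%) and 0 in the average (0%). At an unadjusted p under 0.05 the counts were 555, 713, 2064 and 1787. DESeq2 called 1, 8, 6 and 35 genes in the same order, and limma voom called 0, 0, 0 and 1. The diet effect was also compared between strata. The Slc19a3 effect in APP/E3 females minus that in APP/E3 males was 0.30 ± 0.20, and that in APP/E4 males minus that in APP/E3 males was 0.05 ± 0.22. Neither difference was called for any of the 3 genes, with adjusted p of 0.871 or more, and edgeR called 0 genes (0%) in both.

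APOE genotype and sex were tested the same way where APP/E4 females were absent. In males, APP/E4 against APP/E3 gave -0.19 ± 0.11 for Slc19a3 (adjusted p = 0.63), 0.00 ± 0.082 for Slc19a2 (adjusted p = 0.9999) and 0.07 ± 0.057 for Thtpa (adjusted p = 0.758). That contrast called 146 genes, or 0.961%. In APP/E3 mice, females against males gave differences of -0.01 ± 0.10 for Slc19a3, 0.02 ± 0.076 for Slc19a2 and -0.04 ± 0.053 for Thtpa, with adjusted p from 0.744 to 0.981, where 291 genes (1.92%) were called. Contrasts that hold the APP/E4 females are given as values only. Slc19a3 differed by 0.02 ± 0.098 between APP/E4 and APP/E3 females, averaged over diet, and by 0.20 ± 0.11 between females and males of APP/E4. Thtpa was 0.11 ± 0.051 higher in APP/E4 than in APP/E3 females and 0.09 ± 0.038 higher over both sexes. The backgrounds of these contrasts were 629 genes (4.14%) for genotype in females, 41 (0.27%) for sex in APP/E4, 1032 (6.79%) for genotype over both sexes and 671 (4.42%) for sex over both genotypes.

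**Figure D2:**
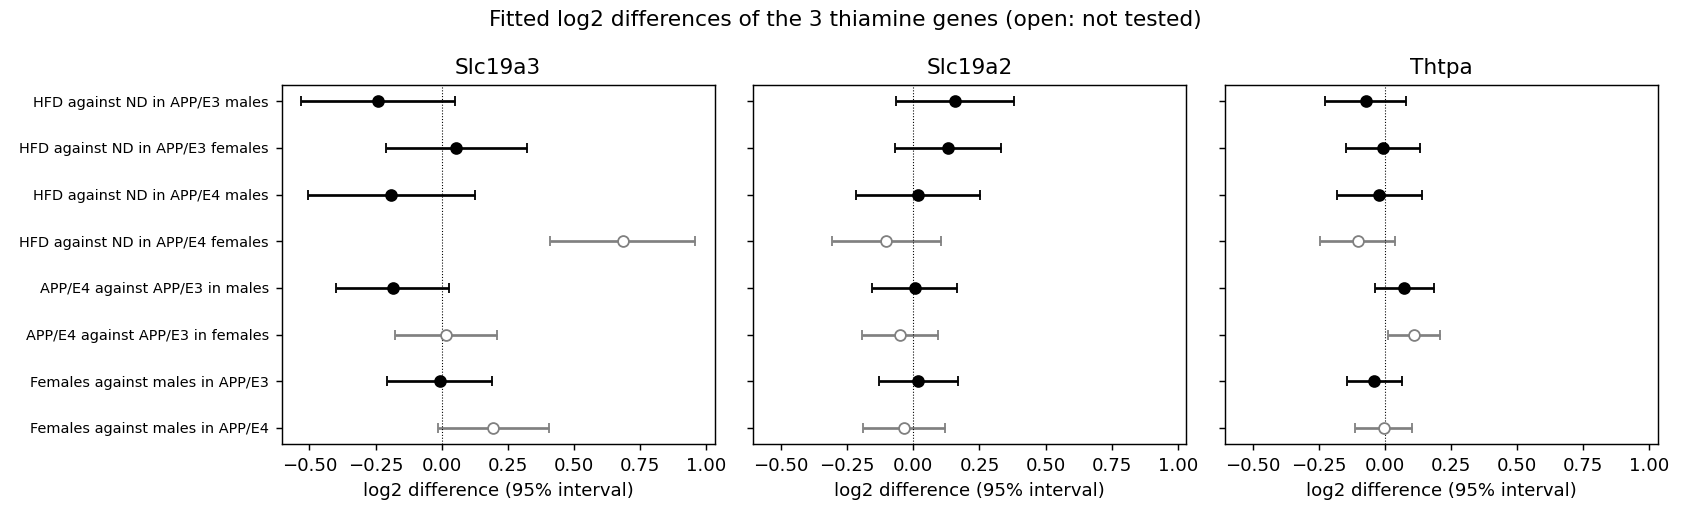
Log2 differences (horizontal axes) with 95% intervals for each gene in 8 contrasts, filled where tested and open where the contrast holds the APP/E4 females that chose the genes. Every filled interval spans 0. The open Slc19a3 interval for HFD against ND in APP/E4 females, from 0.41 to 0.96, takes no account of the choice of the gene and is no test.

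A fixed list of related genes gave no call by diet. Of 42 listed genes for thiamine handling, TPP-dependent enzymes, their regulators and other vitamin carriers, 36 were in the table and 35 were tested. They are called pathway genes below, although 7 of the 35 are listed as carriers of other water-soluble vitamins. None of the 35 was called in any diet contrast, against the backgrounds given above. In APP/E4 females 16 of the 35 were higher and 19 lower on HFD, with a median log2 difference of -0.02 and 2 at an unadjusted p under 0.05, beside a median over all genes of 0.01. Slc19a1, the folate carrier of the same family, was at 15.6 CPM on HFD and 14.2 CPM on ND in these females, a log2 difference of 0.12 ± 0.092 (adjusted p = 0.735). Of 15 TPP-dependent enzyme genes tested, 12 were lower on HFD in APP/E4 females, with a median of -0.05. Among them Pdha1, a subunit of pyruvate dehydrogenase, differed by -0.11 ± 0.054 (adjusted p = 0.626). Ogdh, the oxoglutarate dehydrogenase, differed by -0.07 ± 0.051 and Tkt, transketolase, by -0.02 ± 0.058. The enzymes were lower in 14 of 15 cases in APP/E4 males, in 11 in APP/E3 females and in 5 in APP/E3 males. In the same order, the median log2 difference over all genes was -0.0023, -0.0040 and -0.012. Several of the 15 encode subunits of the same complexes and are not separate cases, and these counts of direction were not tested.

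By genotype averaged over diet and sex, 6 of the 35 pathway genes were called, 4 higher and 2 lower in APP/E4, against the background of 6.79%. Pdk2, a kinase that inactivates pyruvate dehydrogenase, was lower in APP/E4, at 111 ± 9.94 CPM against 129 ± 9.88, a log2 difference of -0.22 ± 0.035 (edgeR adjusted p = 1.2e-05). Of its relatives, Pdk3 rose by 0.16 ± 0.046 (adjusted p = 0.02) and Pdk4 by 0.28 ± 0.074 (adjusted p = 0.015). Slc35f3, described as a thiamine transporter, fell from 40.0 ± 4.17 to 36.3 ± 4.04 CPM (adjusted p = 0.042). Dld, the dihydrolipoamide dehydrogenase shared by the ketoacid dehydrogenases, rose by 0.12 ± 0.027 (adjusted p = 0.0042) and Dlst, the succinyltransferase of the oxoglutarate complex, by 0.09 ± 0.028 (adjusted p = 0.029). Within class 1 libraries alone Pdk2 and Dld were called and the other 4 were not. The call for Slc35f3 was also lost when any 1 of 19 libraries was left out, and that for Dlst without APP/E4 HFD male 5. In males alone Pdk2 was called, a call lost without APP/E4 HFD male 5 and within class 1. In females Pdk2 and Pdk3 were called, the second being lost when any 1 of 18 libraries was left out. These are 1 of 35 (2.86%) in males beside 0.961% of all genes, and 2 of 35 (5.71%) in females beside 4.14%, a share near the background. By sex 1 of 35 pathway genes (2.86%) was called, beside 1.92% of all genes in APP/E3 and 4.42% over both genotypes, again near the background. It was Ppm1k, the phosphatase of branched-chain ketoacid dehydrogenase, which was lower in females by 0.22 ± 0.061 in APP/E3 (adjusted p = 0.04955) and by 0.18 ± 0.044 over both genotypes. The APP/E3 call for Ppm1k was lost when any 1 of 39 libraries was left out, and with the sex letter of the library title as a term neither call held (adjusted p = 0.667 and 0.527). That letter is missing only from titles of males, so the term overlaps with sex and weakens any sex contrast by design.

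**Figure D3:**
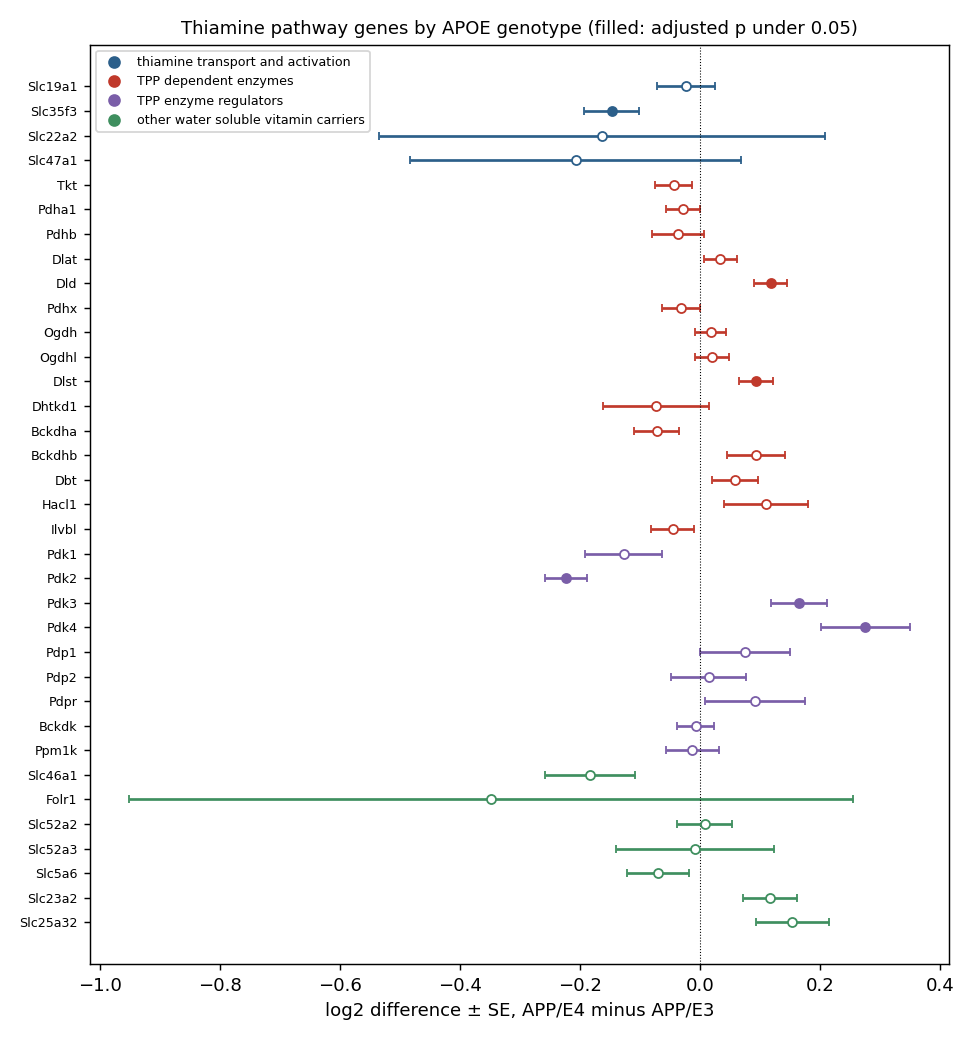
Log2 difference of APP/E4 against APP/E3 averaged over diet and sex (horizontal axis, ± SE) for the 35 tested pathway genes, coloured by list and filled where the adjusted p was under 0.05. The 6 filled points include Pdk2 at -0.22 and Pdk4 at 0.28.

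Bulk cortex RNA cannot tell fewer cells of a type from less RNA per cell, so cell markers are given beside Slc19a3. All 10 endothelial markers were higher on HFD in APP/E4 females, with a median log2 difference of 0.21 and a maximum of 0.29, and none was called. Their summed level ran from 260.0 to 352.5 CPM on ND and from 305.4 to 365.1 CPM on HFD, so these sums overlapped. Divided by this sum, a ratio chosen after the values were seen, Slc19a3 ran from 9.96 to 12.9 per 1000 endothelial CPM on ND and from 14.5 to 19.7 on HFD. Its means were 11.3 ± 1.19 and 16.0 ± 1.76. The numerator holds the values that chose the gene, so the ratio is a description only. No endothelial marker was at 0 in any library, the lowest count being 24. Of the mural cell markers 9 of 10 were higher, with a median of 0.17 and sums of 160.0 to 223.4 CPM on ND and 171.4 to 246.1 on HFD. All 5 microglial markers were higher (median 0.23, sums 403.1 to 557.9 against 459.7 to 580.9 CPM), as were all 5 astrocyte markers (median 0.17, sums 4131 to 5508 against 4707 to 5845 CPM).

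Markers of other tissues and cells varied as follows. All 8 choroid plexus markers were higher on HFD in APP/E4 females, with a median of 1.32 and sums of 241.3 to 557.8 CPM on ND and 292.3 to 1320 CPM on HFD, and 3 of the 8 were at 0 in at least 1 library. Olfactory bulb markers had a median of 1.33, with sums of 9.60 to 190.1 against 6.61 to 1044 CPM. Meningeal fibroblast markers were higher in 8 of 10 cases (median 0.22, sums 63.4 to 218.1 against 49.9 to 286.5 CPM). All 5 striatal markers were lower (median -0.95, sums 97.2 to 786.7 against 73.5 to 920.9 CPM), as were the 5 oligodendrocyte markers (median -0.17, sums 2149 to 6377 against 2601 to 3718 CPM) and the 5 blood markers (median -0.43). Neuronal markers were lower in 5 of 6 cases (median -0.08, sums 7350 to 8636 against 6264 to 8672 CPM). Cortical projection neuron markers were lower in 3 of 5 (median -0.04), and ependymal markers were higher in 4 of 5 (median 0.16). None of these genes was called in this contrast, and their part in the Slc19a3 difference was not tested. Across the 52 libraries, after removal of the group means, Slc19a3 correlated with the endothelial score at r = 0.45, with astrocytes at 0.38, with microglia at 0.36, with mural cells at 0.06 and with choroid plexus at -0.13. With striatum r was -0.27 and with meningeal fibroblasts -0.20, and with the remaining lists it lay between -0.06 and 0.13. These values describe libraries that share depth and dissection and carry no test.

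**Figure D4:**
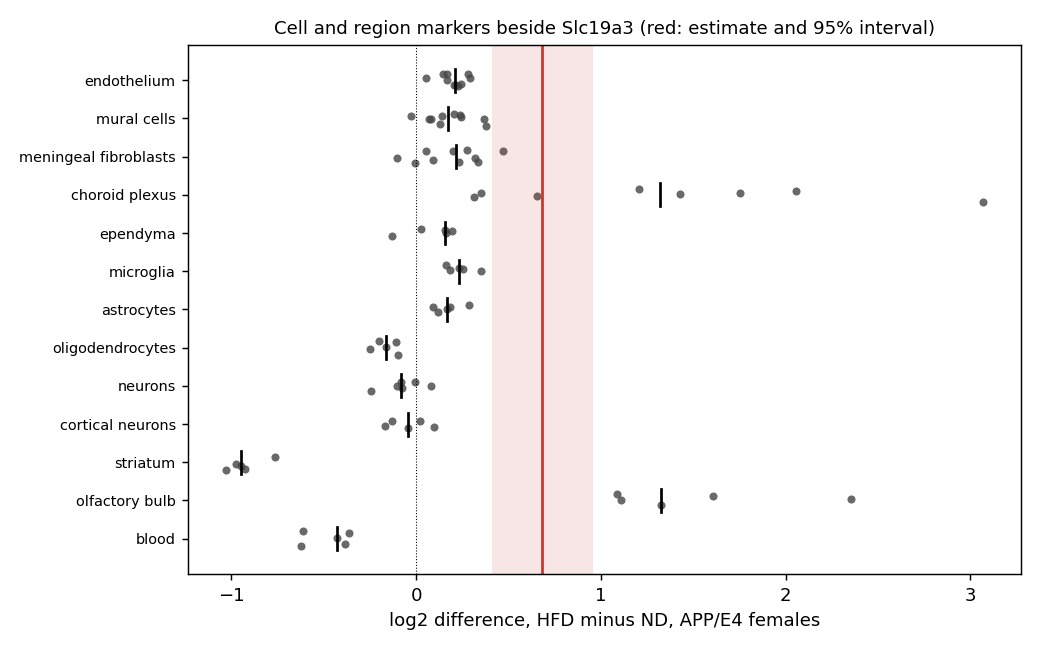
Log2 difference of HFD against ND in APP/E4 females (horizontal axis) for each marker gene (points) and list median (black ticks), with the Slc19a3 estimate and 95% interval in red. The endothelial points reach 0.29 and the choroid plexus points 3.07, and the red interval describes the contrast that chose the gene.

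Of the 3 genes, Slc19a2 was called between read classes. Slc19a2 averaged 19.5 ± 2.20 CPM in the 11 class 2 libraries, 16.9 ± 2.09 in the 33 of class 1 and 17.4 ± 2.33 in the 8 of class 3. With group means in the same fit, class 2 was higher than class 1 by 0.26 ± 0.069 (edgeR adjusted p = 0.0046), where 3462 genes or 22.8% were called. Within the 4 female groups, class 2 and class 1 means of Slc19a2 were 19.3 and 16.0 CPM in APP/E3 ND, 18.9 and 18.2 in APP/E3 HFD, 21.5 and 16.1 in APP/E4 ND, and 18.9 and 15.6 in APP/E4 HFD. Class 2 was the higher in all 4. In APP/E3 females class 2 held 5 of the 8 HFD libraries and 2 of the 7 ND libraries. The Slc19a2 diet difference in that stratum ran from 0.048 to 0.16 over the 9 other processing settings. Slc19a3 differed between those classes by -0.03 ± 0.10 (adjusted p = 0.93) and Thtpa by 0.09 ± 0.054 (adjusted p = 0.246). Between class 3 and class 1 none of the 3 genes was called, where 43 genes or 0.283% were. In APP/E4 females each diet group held 5 libraries of class 1 and 2 of class 2. Among the class 1 libraries Slc19a3 was at 5.20 ± 0.443 CPM on HFD and 3.36 ± 0.532 on ND (n = 5 each), and among the class 2 libraries it was at 4.72 and 6.54 CPM on HFD and 2.97 and 3.34 on ND. These are the values that chose the gene, split by class, and they add no support for it. The part of read class in the difference was not tested.

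The genes whose levels varied most like each of the 3 across the 52 libraries, after removal of group means, were found by Pearson correlation of log2 CPM. For Slc19a3 the first was Fads1, a fatty acid desaturase, at r = 0.57, followed by Map2, Ccl6, Tst, Tlr12, Maob, S1pr1 and ND2, the eighth at 0.50. For Slc19a2 the first was Cntn3, a contactin, at 0.61, and the eighth C030039L03Rik at 0.58. For Thtpa the first were Tbc1d7 at 0.70 and Omg, an oligodendrocyte myelin glycoprotein, at 0.70, and the eighth Rbm11 at 0.62. Among the 3 genes themselves, r was -0.24 between the carriers, -0.07 between Slc19a3 and Thtpa and 0.10 between Slc19a2 and Thtpa. Within class 1 alone the correlation between the carriers was -0.42 (n = 33). The correlations describe libraries that share depth and read class.

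The authors' deposited table gives 1 coefficient per gene for diet over all mice, with ND minus HFD as its direction, judged from its correlation of -0.87 across genes with the fitted HFD minus ND difference. In the authors' deposited table the log2 coefficient was -0.09 for Slc19a3 (p = 0.281), -0.06 for Slc19a2 (p = 0.258) and 0.05 for Thtpa (p = 0.165). None of the 3 had an unadjusted p under 0.05 there. These values include the APP/E4 females that chose the genes, and they pool strata whose Slc19a3 differences had opposite signs. They are given as the authors' values and are no test of the 3 genes.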

How the data were processed

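RNA from frontal cortex of 52 mice was sequenced as mRNA libraries. Per the submitters' processing notes, reads were aligned to mm9 with Subread, counted with featureCounts, and analysed with limma and edgeR 3.14.0. The authors deposited raw counts per gene, and a table holding a log2 coefficient and a p-value for diet. Whether counting used strand is not given in the sources used here. The 3 genes, the pathway and marker lists and the tests were chosen with earlier results of these data known.

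Counts were fitted in R 4.3.3 with edgeR 4.0.16 (filterByExpr over 8 groups, TMM, robust quasi-likelihood, 1 mean per group). filterByExpr removed 497 genes. P-values were adjusted by Benjamini-Hochberg, with calls at 0.05. Alternatives used limma 3.58.1 voom, DESeq2 1.42.0, RLE factors, no filter, read class or the sex letter of the library title as terms, class 1 alone, and only the groups compared. Log2 CPM had a prior count of 2. Read classes came from Ward clustering of log values of 323 pseudogenes. Intervals are the estimate ± 1.96 SE. Exon lengths came from GENCODE M21, a different build from that of the counts. Scripts were tested on simulated data. Named genes were the 3 genes, every pathway gene called (up to 6 per contrast by smallest p, beside 4 core genes named always), and the 8 most alike genes. Groups came from the labels' genotype, diet and gender, and replicate numbers only name libraries. The labels do not say that libraries came from separate litters, and p-values measure the spread between these libraries. None of the 146 pairs of libraries compared agreed within sampling noise, and the remaining pairs were not compared. The second deposited table was not used. Some genes of the pathway are not reported here.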

Additional observations from a re-analysis of the deposited data

Results flagged for a closer look

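The Thtpa level of APP/E3 HFD male 3, 30.78 CPM, stood apart from the other 5 of its group, which ran from 28.54 to 29.07 CPM. The gap to the nearest library was large relative to a narrow group. It lies within the range of the other groups. With 24 combinations of gene and group examined, chance gives about 1 such value in 20 groups.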

How the results depend on the processing

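The 24 tested comparisons of the 3 genes were recomputed under 9 other settings, giving 216 values. No value passed the threshold, the lowest adjusted p over all settings and left-out libraries being 0.325, and 205 kept their direction. The 11 that changed sign were all smaller than 1.5 times their own SE, and the cause was not tested. For Slc19a3, females against males in APP/E3 became 0.0049 with DESeq2, 0.0054 with limma voom and 0.0014 in class 1 alone. For Slc19a2 that contrast became -0.12 with read class as a term, -0.080 in class 1 alone and -0.064 with class and sex letter as terms. In class 1 alone, Slc19a2 was at -0.064 for diet in APP/E4 males, -0.045 for genotype in males and 0.10 for the diet effect in APP/E3 females minus APP/E3 males, and the effect in APP/E4 males minus APP/E3 males became -0.00018 for Slc19a3 and -0.045 for Thtpa.

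Leaving out 1 library gave ranges that crossed 0 in 9 comparisons. They were -0.052 to 0.066 for Slc19a2 and -0.062 to 0.0061 for Thtpa by diet in APP/E4 males, -0.016 to 0.12 for Slc19a3 and -0.047 to 0.055 for Thtpa by diet in APP/E3 females, and -0.031 to 0.033 for Slc19a2 by genotype in males. By sex in APP/E3 they were -0.043 to 0.030 for Slc19a3 and -0.0098 to 0.046 for Slc19a2. The Slc19a3 effect in APP/E4 males minus APP/E3 males ran from -0.098 to 0.16, and the Slc19a2 effect in APP/E3 females minus APP/E3 males from -0.078 to 0.035.

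Counts of called genes over the 9 settings ran from 405 to 1711 for genotype over both sexes, 361 to 1178 for genotype in females, 43 to 216 for genotype in males, 18 to 837 for sex over both genotypes, 18 to 463 for sex in APP/E3, 15 to 76 for sex in APP/E4, 0 to 162 for diet averaged over 3 strata, and 0 to 8 or fewer for diet within strata. Leaving out 1 library moved the count for sex in APP/E3 from 151 (without ND female 7) to 708 (without ND male 2), for genotype in females from 428 (without APP/E4 ND female 7) to 1176 (without APP/E3 ND female 4), for sex over both genotypes from 431 to 1061 and for sex in APP/E4 from 25 to 97. Pathway calls by genotype ran from 2 to 8 against 6. No paired analysis was possible because the labels carry no replicate numbers. Depth limits Slc19a3 most, at 18 to 166 counts per library.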
